A study of Homo sapiens with 12 samples.

Results

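The HOX genes are the 39 protein-coding genes whose approved symbol is HOXA, HOXB, HOXC or HOXD followed by a number. They were taken by symbol from the 60617 Ensembl genes of the deposited count table, 11 in the HOXA cluster, 10 in HOXB, 9 in HOXC and 9 in HOXD. RNA was sequenced from A549, an established human lung adenocarcinoma line, in 12 libraries, 3 for each of 4 conditions. A549 without either change is called WT here. The YTHDF1 KO group has the genotype YTHDF1 knockout, the siARID1A group has ARID1A knocked down by small interfering RNA, and the combined group carries both changes. YTHDF1 is a reader of N6-methyladenosine in RNA, and ARID1A is a subunit of the SWI/SNF chromatin remodeller. The titles name a knockdown of YTHDF1 where the genotype field names a knockout. No label says whether its cells were a clone or a pool, or names a control small interfering RNA. The titles call the libraries of each group biological replicates. No label states that these were separate cultures, so p-values measure the spread between libraries only.

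HOX proteins are homeodomain transcription factors that set positional identity along the body axis. Their genes lie in 4 clusters in the order of the regions they pattern, with low-numbered (anterior) genes at one end and high-numbered (posterior) genes at the other. Genes of the same number in different clusters are paralogs descended from a shared ancestral gene. Trithorax complexes keep the clusters active and Polycomb complexes keep them silent, retinoic acid can switch them on from the anterior end, and PBX and MEIS proteins bind DNA together with HOX proteins. In the developing lung HOXA5 and several HOXB genes are expressed, and adult cells and tumour lines often keep a fixed set of active HOX genes.

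Library totals ran from 30220717 to 45042635 counts, of which 4522 to 7266 came from HOX genes. YTHDF1 itself stood at 88.2 CPM (counts per 1000000 of the TMM-scaled library total) in WT, 24.9 in YTHDF1 KO, 97.9 with siARID1A and 30.9 in the combined group, and ARID1A at 164, 161, 42.5 and 54.2 CPM. WT replicate 2 stood apart, with 4.85% of its counts from mitochondrial genes against 7.9% and 8.23% in the other WT libraries. The counts of WT replicate 2 differed from theirs by a chi-square per degree of freedom of 50.36 and 48.74, against 12.46 between those, and HOX calls that rest on it are named below. Of 7 epithelial markers none was at 0 in any group. Their summed level was 6030 to 8070 CPM in WT and 5040 to 6710 in siARID1A, but 2760 to 2960 in YTHDF1 KO and 3320 to 3550 in the combined group. KRT8 and KRT18 made up most of that sum in each group, and single markers went other ways. CDH1 had means of 104, 41.6, 171 and 109 CPM in WT, YTHDF1 KO, siARID1A and the combined group, and CLDN1 89.1, 391, 199 and 398. Against WT, 1 of the 7 rose and 4 fell in YTHDF1 KO (all tested genes: 19.6% and 20.8%), 4 rose and 1 fell with siARID1A (22.1% and 23%), and 2 rose and 3 fell in the combined group (25.6% and 25.9%). Markers of blood, endothelial and stromal cells (12 genes) summed to 36.1 to 62.3 CPM in WT, 45.3 to 50.1 in YTHDF1 KO, 45 to 62.3 with siARID1A and 40.3 to 56.6 in the combined group. COL1A1 was the largest of them in each group, at means of 43.1, 34.4, 31.5 and 28.8 CPM, while COL3A1 stood at 0.174, 5.88, 0.417 and 5.79 and ACTA2 at 3.38, 6.59, 22.1 and 13.2 in the same order. Of 6 that could be tested, 2, 2 and 4 rose and 0 fell in the 3 altered groups against WT. CD3E and CDH5 were among those at 0 in the combined group, in siARID1A and in YTHDF1 KO, with VWF also at 0 in siARID1A and PTPRC in YTHDF1 KO. The part of these shifts in the HOX results was not tested, and in RNA of whole cultures fewer cells of a type and less RNA per cell cannot be told apart.

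Of the 39 HOX genes, 37 had at least 1 count in some library and 23 reached a mean of 1 CPM in at least 1 group. HOXB1 and HOXC12 had 0 counts in all 12 libraries. In WT the genes with a mean of at least 1 CPM were 8 of HOXA, 7 of HOXB, 6 of HOXC and 2 of HOXD (HOXD4 and HOXD8). The number was 21 in YTHDF1 KO, 22 with siARID1A and 21 in the combined group. A filter on low counts (about 10 counts in each of 3 libraries, or 0.276 CPM) left 33 for testing: 11 of HOXA, 9 of HOXB, 7 of HOXC and 6 of HOXD. For 6 of the tested genes, at least 1 group had no library above that level, so that they were tested only because of their counts in the other groups: HOXA11, HOXC5, HOXD3, HOXD4, HOXD9 and HOXD13.

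HOXB7, a central gene, was the most abundant HOX transcript in WT by CPM per kb of exon, the scale on which levels of different genes can be set side by side. It stood at 9.37 ± 0.751 (SD, n = 3), with a range of 8.64 to 10.1 that did not overlap that of any other HOX gene. HOXA3 followed at 5.2 ± 0.505, then HOXB9 at 4.54 ± 0.452, HOXB6 at 3.85 ± 0.837, HOXA5 at 3.18 ± 0.362, HOXC9 at 2.83 ± 0.858 and HOXB5 at 2.78 ± 0.412, each with a range that overlapped the next. The median of the tested HOX genes in WT was 0.899 CPM per kb, against 2.56 over all tested genes with a length. HOXB7 kept the first place in all 4 groups, at 11 ± 1.33 in YTHDF1 KO, 12.8 ± 0.478 with siARID1A and 15 ± 0.727 in the combined group. The second place went to HOXC8 in YTHDF1 KO (5.58 ± 0.688) and in the combined group (5.57 ± 0.726), and to HOXC13 in siARID1A (4.7 ± 0.312), although HOXC8 overlapped HOXB9 in YTHDF1 KO and HOXC13 overlapped HOXA3 in siARID1A.

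**Figure D1:**
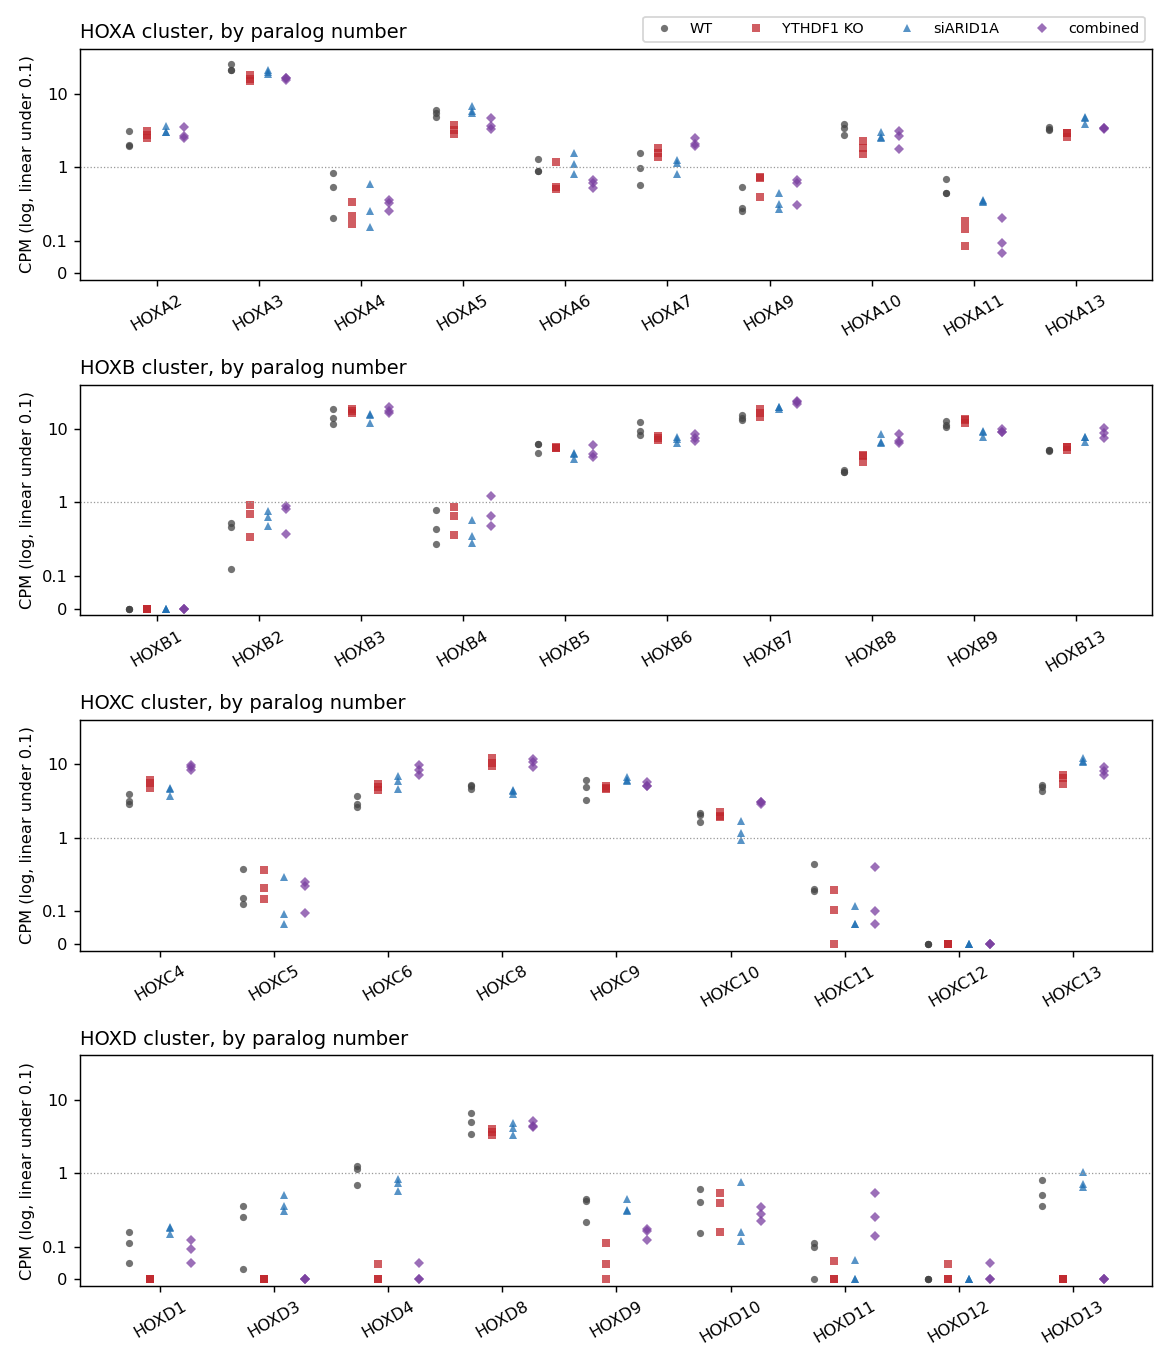
CPM of HOX genes (y axis, logarithmic above 0.1 and linear below) in each of the 12 libraries, 1 panel per cluster with genes by paralog number, points coloured by group and a dotted line at 1 CPM. HOXA and HOXB hold most of the genes above 1 CPM, and HOXD3, HOXD4 and HOXD13 lie at or near 0 in YTHDF1 KO and the combined group.

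Within each cluster, level did not follow paralog number in a single direction. In HOXA, HOXA3 and HOXA5 were among the genes with the highest WT levels per kb, while HOXA4 stood at 0.3 and HOXA9 at 0.116. In HOXB the stretch from HOXB5 to HOXB9, HOXB3 and HOXB13 (1.49) were active, with HOXB2 (0.159) and HOXB4 (0.134) low and HOXB1 at 0. In HOXC the genes HOXC4, HOXC6, HOXC8, HOXC9, HOXC10 and HOXC13 were present at 0.839 to 2.83, HOXC5 and HOXC11 were at 0.12 and 0.0848, and HOXC12 at 0. In HOXD only HOXD8 (1.9) passed 1 CPM per kb. The low genes HOXA4, HOXB4 and HOXC5 lie inside the same-strand spans of HOXA3, HOXB3 and HOXC4. HOXA5 and HOXB5 also lie inside those of HOXA3 and HOXB3, and were higher. Reads in such overlaps could be dropped in counting while the full exon length is kept, so levels per kb of these genes are uncertain.

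Summed over a cluster, the CPM of HOXC genes was higher in every altered group than in WT. Their sum was 23.7, 21.5 and 24.9 CPM in WT, 34.5, 34.4 and 34.6 in YTHDF1 KO, 32.7, 33.5 and 34.5 with siARID1A and 47.5, 43.8 and 43.7 in the combined group. The WT libraries and the combined libraries overlapped no other group. The HOXB sum was 60.5, 71.4 and 64.1 CPM in WT and 81.4, 81.1 and 79.5 in the combined group, with YTHDF1 KO (67.3 to 73.5) and siARID1A (67.3 to 74.2) between them and overlapping WT. The HOXA sum was 41.2, 50.6 and 43.5 CPM in WT against 35.9, 36.6 and 33.2 in YTHDF1 KO, which did not overlap any other group. The HOXD sum was 6.05, 7.65 and 9.52 CPM in WT and 3.51, 4.62 and 4.16 in YTHDF1 KO. HOXC thus made up 16.6% of the summed HOX CPM in WT, 23.8% in YTHDF1 KO, 21.2% with siARID1A and 26.3% in the combined group. HOXA made up 31.8%, 24.3%, 30.2% and 23.5%. These sums are not scaled by gene length, so they are shares of reads rather than of transcripts.

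Knockout of YTHDF1 was compared with WT, and within siARID1A cells. Loss of this reader cannot be told apart from other differences of the knockout cells, since no label says clone or pool. Positions are those of GENCODE 29 on GRCh38. Against WT the called HOXC genes (4 of 7 tested) all rose and the called HOXA genes (4 of 11 tested) all fell. HOXD3, HOXD4 and HOXD13 went to 0 or nearly so. In YTHDF1 KO against WT, 5 of the 33 tested HOX genes rose and 9 fell, where 19.6% of all 18524 tested genes rose and 20.8% fell. The HOX shares were 15.2% and 27.3%, near that background. The distribution of calls over clusters was not tested. HOXC had 4 rises and 0 falls, HOXA 0 rises and 4 falls, HOXB 1 rise and 1 fall, and HOXD 0 rises and 4 falls. HOXA11 and all 4 HOXD genes among the falls had no YTHDF1 KO library above the filter level, and entered the test only through groups where they were higher. In the combined group against siARID1A, 5 rose and 6 fell (background 18.2% and 17.2%), with HOXC at 4 and 1, HOXA at 1 and 2, HOXB at 0 and 0, and HOXD at 0 and 3. These 2 comparisons share no library, but both set knockout cells against cells without it. Any other difference of the knockout cells could enter both. HOXC4, HOXC6 and HOXC8 rose in both (3 of 5 in each), and HOXA3, HOXA5, HOXD3, HOXD4 and HOXD13 fell in both (5 of 9 and 5 of 6). The share of all tested genes called alike in both is not given here, so this agreement has no background beside it. HOXD3, HOXD4 and HOXD13 also had no combined library above the filter level, and entered the test only through WT and siARID1A, where they were higher.

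**Figure D2:**
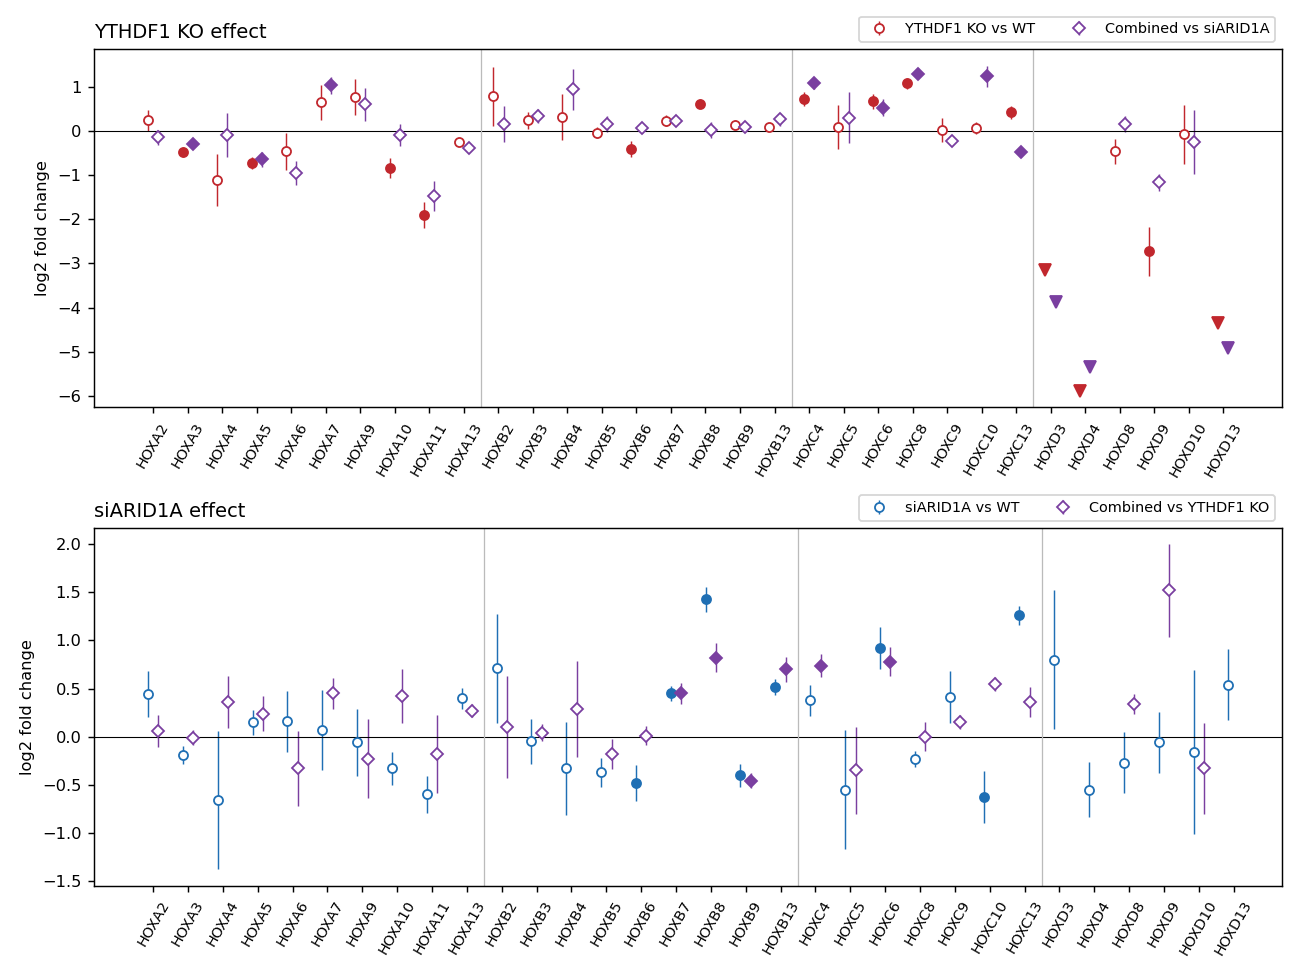
Log2 fold change of tested HOX genes (circles and diamonds with standard errors, filled where the adjusted p was under 0.05), with the YTHDF1 KO effect above and the siARID1A effect below, each in both backgrounds, and grey lines between clusters A, B, C and D. Triangles are folds against a floor of 3 counts (HOXD3, HOXD13) or count ratios (HOXD4) for genes with 0 to 3 counts in a group. These 3 genes are left out where both groups were that low. HOXC8 stands at 1.08 and 1.30 in the upper panel.

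HOXC8 (ENSG00000037965, chromosome 12, 54009106 to 54012362), a thoracic patterning gene, had the largest rise among HOX genes in YTHDF1 KO. It stood at 4.57, 5.11 and 5.28 CPM in WT and at 10.3, 9.41 and 12 in YTHDF1 KO, then at 4.35, 3.92 and 4.49 with siARID1A and 11.8, 10.7 and 9.05 in the combined group. The knockout groups lay above the other groups with no overlap. The log2 fold change was 1.08 (SE 0.12, adjusted p = 7.36e-07) against WT and 1.30 (SE 0.13, adjusted p = 7.42e-08) within siARID1A.

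HOXC4, an anterior cervical gene, was 2.92, 3.21 and 3.9 CPM in WT, 5.58, 6.12 and 4.69 in YTHDF1 KO, 3.69, 4.58 and 4.7 with siARID1A and 9.66, 8.49 and 9.33 in the combined group. All combined libraries lay above all others, and the siARID1A libraries overlapped those of WT and, by a narrow margin, of YTHDF1 KO. It rose by 0.72 on the log2 scale (SE 0.16, adjusted p = 0.000904) in YTHDF1 KO and by 1.08 (SE 0.12, adjusted p = 5.61e-06) within siARID1A. HOXC6 stood at 3.75, 2.61 and 2.89 CPM in WT, 4.97, 4.43 and 5.36 in YTHDF1 KO, 5.95, 4.64 and 6.86 with siARID1A and 8.41, 7.2 and 9.68 in the combined group. WT lay below and the combined group above every other library. HOXC6 rose by 0.67 (SE 0.17, adjusted p = 0.00412) in YTHDF1 KO and by 0.53 (SE 0.2, adjusted p = 0.0163) within siARID1A. The latter call was lost without siARID1A replicate 2 (adjusted p = 0.102) or combined replicate 3 (adjusted p = 0.107), within a range of 0.00652 to 0.107 over the alternatives.

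HOXC9 and HOXC10, the next genes in the cluster, did not pass in YTHDF1 KO against WT. HOXC9 went from 4.75 ± 1.44 to 4.81 ± 0.205 CPM (0.03, SE 0.27, adjusted p = 0.914) and HOXC10 from 1.96 ± 0.295 to 2.04 ± 0.163 CPM (0.06, SE 0.14, adjusted p = 0.873). HOXC13, a gene of hair and nail formation at the posterior end, rose by 0.42 (SE 0.14, adjusted p = 0.0225) from 4.77 ± 0.446 to 6.37 ± 0.905 CPM. That call was lost without WT replicate 2 (0.36, adjusted p = 0.0713), YTHDF1 KO replicate 1 (adjusted p = 0.0545) or YTHDF1 KO replicate 2 (0.32, adjusted p = 0.138), in a range of 0.00575 to 0.138 over the alternatives. HOXB8 was the 1 HOXB gene that rose, from 2.67 ± 0.079 to 4.1 ± 0.469 CPM (0.62, SE 0.1, adjusted p = 0.00514), and within siARID1A it did not pass (0.02, SE 0.18, adjusted p = 0.95). The difference between these changes of HOXB8 was -0.60 (SE 0.2, adjusted p = 0.0787) and did not pass, but passed without combined replicate 3 (-0.74, adjusted p = 0.0495; 0.0495 to 0.224 over the alternatives).

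In HOXA the 4 genes that fell in YTHDF1 KO were HOXA3, HOXA5, HOXA10 and HOXA11. HOXA5 (ENSG00000106004, chromosome 7, 27141052 to 27143668, minus strand), a gene required for lung development in mice, was 4.82, 6.06 and 5.4 CPM in WT, 3.69, 3.24 and 2.86 in YTHDF1 KO, 5.83, 5.52 and 6.74 with siARID1A and 4.71, 3.63 and 3.3 in the combined group. Every library with the knockout lay below every library without it. It fell by 0.73 on the log2 scale (SE 0.14, adjusted p = 0.00134) against WT and by 0.64 (SE 0.17, adjusted p = 0.00451) within siARID1A. HOXA3, the most abundant HOXA gene, was 21.1, 24.9 and 21.2 CPM in WT, 14.9, 17.8 and 15.8 in YTHDF1 KO, 21.1, 18.3 and 19.5 with siARID1A and 16.5, 15.5 and 16.2 in the combined group. Again no knockout library reached the lowest library without it. HOXA3 fell by 0.47 (SE 0.11, adjusted p = 0.000478) and, within siARID1A, by 0.29 (SE 0.065, adjusted p = 0.0286). The second of these calls was lost with library totals (-0.21, adjusted p = 0.141) and without siARID1A replicate 1 (0.137), siARID1A replicate 3 (0.0574), or combined replicate 1 (0.0503), 2 (0.104) or 3 (0.0654), with adjusted p from 0.0124 to 0.141 over the alternatives.

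HOXA10, a posterior gene of the uterus and blood, fell from 2.72, 3.91 and 3.36 CPM in WT to 2.25, 1.84 and 1.49 in YTHDF1 KO (-0.84, SE 0.22, adjusted p = 0.00499), and siARID1A (2.66 ± 0.282) and the combined group (2.5 ± 0.652) overlapped WT. HOXA11, a gene of the forearm and the uterus, had 18, 20 and 22 counts in WT, 7, 6 and 3 in YTHDF1 KO, 11, 11 and 12 with siARID1A and 2, 4 and 8 in the combined group. Its fall of 1.90 (SE 0.3, adjusted p = 0.014) in YTHDF1 KO was lost without WT replicate 3 (adjusted p = 0.0603) or YTHDF1 KO replicate 3 (0.0692), in a range of 0.00901 to 0.0692. Within siARID1A it lay at -1.48 (SE 0.34, adjusted p = 0.0752). HOXA7 was 0.975, 0.575 and 1.54 CPM in WT, 1.83, 1.38 and 1.54 in YTHDF1 KO, 1.12, 0.815 and 1.24 with siARID1A and 1.91, 2.09 and 2.47 in the combined group. The combined group lay above all others, and HOXA7 rose by 1.03 (SE 0.2, adjusted p = 0.0106) within siARID1A but did not pass against WT (0.65, SE 0.4, adjusted p = 0.1). The call within siARID1A was lost without siARID1A replicate 2 (0.0541) or combined replicate 3 (0.05), and that against WT appeared without WT replicate 3 (1.04, adjusted p = 0.0134), in ranges of 0.0034 to 0.0541 and 0.0134 to 0.385.

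HOXB6 was 9.4, 12.4 and 8.23 CPM in WT and 8.06, 7.5 and 7.1 in YTHDF1 KO, a fall of 0.41 (SE 0.18, adjusted p = 0.0259) whose groups did not overlap by a narrow margin. It was not called without WT replicate 2 (-0.21, adjusted p = 0.277), YTHDF1 KO replicate 2 (adjusted p = 0.0694) or YTHDF1 KO replicate 3 (adjusted p = 0.0954), or with library totals (adjusted p = 0.0973), in a range of 0.00599 to 0.277. HOXB3, in turn, passed only without WT replicate 2 (0.46, adjusted p = 0.00415) against 0.24 (adjusted p = 0.17) with all libraries, in a range of 0.00415 to 0.621. HOXB7 (14.3 ± 1.15 and 16.8 ± 2.03 CPM) lay at 0.23 (SE 0.12, adjusted p = 0.0774), and passed without WT replicate 3 (0.29, adjusted p = 0.0427) or YTHDF1 KO replicate 3 (0.32, 0.0316) and with library totals (0.32, 0.0186), in a range of 0.0186 to 0.376.

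The HOXD cluster (chromosome 2, 176092891 to 176190907 in GENCODE 29 on GRCh38, plus strand) held the genes that went to 0 or near it. HOXD13 (ENSG00000128714, 176092891 to 176095938), a posterior gene of digits and the urogenital tract, had 20, 16 and 26 counts in WT and 34, 23 and 22 in siARID1A. It had 0 in all 6 libraries of YTHDF1 KO and the combined group. Against a floor of 3 counts over a group (0.0261 CPM in YTHDF1 KO, 0.0263 in the combined group) it was at least 20.3-fold below WT in YTHDF1 KO (adjusted p = 2.4e-05). It was at least 30.4-fold lower in the combined group than in siARID1A (adjusted p = 8.46e-06).

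HOXD3, an anterior gene, had 10, 16 and 1 counts in WT, 10, 16 and 12 in siARID1A, and 0 in both knockout groups. It was at least 8.85-fold below WT in YTHDF1 KO (adjusted p = 0.00308) and at least 14.6-fold lower within siARID1A (adjusted p = 0.000759). HOXD4 had 28, 52 and 40 counts in WT, 24, 18 and 28 in siARID1A, 0, 2 and 0 in YTHDF1 KO and 0, 0 and 2 in the combined group. The ratio was 59 (95% exact binomial counting interval 16 to 493) against WT (adjusted p = 2.55e-06) and 40.4 (10.8 to 341) within siARID1A (adjusted p = 2.18e-05). HOXD9 had 18, 19 and 7 counts in WT, 0, 2 and 4 in YTHDF1 KO, 10, 10 and 15 with siARID1A and 4, 7 and 7 in the combined group. It fell by 2.73 (SE 0.55, adjusted p = 0.00642) in YTHDF1 KO, and within siARID1A it lay at -1.16 (SE 0.19, adjusted p = 0.201). These 4 genes lie at 0.212 to 1.04 CPM in WT, and passed the filter only through WT and siARID1A, where they were higher. Intervals cover counting error only. Floors cover that of the group at 0 only, with the other group taken at its observed counts, so those folds are not full lower limits.

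HOXD8 lies between them on the chromosome and kept its transcript. It was 3.4, 5 and 6.63 CPM in WT, 3.35, 3.94 and 3.59 in YTHDF1 KO, 4.17, 3.32 and 4.88 with siARID1A and 4.42, 5.06 and 4.26 in the combined group, with all groups overlapping WT. The change of -0.46 (SE 0.28, adjusted p = 0.0763) in YTHDF1 KO did not pass, although it passed without WT replicate 1 (-0.67, adjusted p = 0.0085; 0.0085 to 0.446 over the alternatives). Without that library HOXD8 also passed in siARID1A against WT (-0.49, adjusted p = 0.047), where it lay at -0.27 (adjusted p = 0.294) with all libraries. HOXD10, at 0.388 ± 0.223 CPM in WT and 0.361 ± 0.19 in YTHDF1 KO, lay at -0.08 (SE 0.66, adjusted p = 0.934). The promoter sequences of HOXD13 and HOXD3, at 0 in the knockout groups, are shown beside that of HOXD8, which was not, from 250 to 51 bases before the RefSeq start (GRCh38.p14, plus strand, 5′ to 3′). CG dinucleotides are in capitals. They lie at chr2:176092471-176092670, chr2:176157057-176157256 (inside the GENCODE span of HOXD3) and chr2:176129455-176129654, and overlap no HOX exon.
HOXD13: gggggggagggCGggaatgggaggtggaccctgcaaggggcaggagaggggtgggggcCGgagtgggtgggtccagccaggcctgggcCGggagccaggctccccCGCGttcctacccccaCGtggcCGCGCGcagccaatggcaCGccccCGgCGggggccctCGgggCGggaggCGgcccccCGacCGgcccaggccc
HOXD3: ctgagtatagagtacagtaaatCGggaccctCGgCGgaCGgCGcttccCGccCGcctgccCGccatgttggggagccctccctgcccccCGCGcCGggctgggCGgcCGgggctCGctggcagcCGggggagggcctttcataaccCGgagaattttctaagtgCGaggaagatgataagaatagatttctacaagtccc
HOXD8: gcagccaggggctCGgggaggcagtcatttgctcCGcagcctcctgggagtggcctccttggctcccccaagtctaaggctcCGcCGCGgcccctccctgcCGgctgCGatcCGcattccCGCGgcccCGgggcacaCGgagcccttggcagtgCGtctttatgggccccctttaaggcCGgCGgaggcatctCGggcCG
Each of the 3 windows held 17 CG, and 72.8% of 35116 RefSeq promoter windows of this length held fewer (median 8). None held the homeodomain core TAAT, found in 43.5% of windows on either strand, or the HOX-PBX motif TGATNNAT, found in 5.42%. The window of HOXD4, which also fell to near 0, overlaps a HOX exon and is not printed, and it held 3 CG and 5 TAAT. Windows were found for 20 HOX genes.

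The remaining HOXD genes were too low to test. HOXD1 had 2, 5 and 5 counts in WT, 0 in YTHDF1 KO, 5, 6 and 6 with siARID1A and 4, 4 and 2 in the combined group, at least 3.93-fold lower in YTHDF1 KO than in WT. HOXD11 had 4, 5 and 0 counts in WT, 0, 0 and 2 in both single-change groups, and 17, 6 and 10 in the combined libraries, which lay above all others. The ratio of the combined group was 16.6 (95% counting interval 4.25 to 143) to YTHDF1 KO and 14.3 (3.65 to 123) to siARID1A. With no filter on low counts, HOXD11 passed in both (adjusted p = 0.0412 and 0.0396), and HOXD1 in YTHDF1 KO against WT (0.038). HOXD12 had 4 counts in all 12 libraries. HOXC11 had 34 counts in WT, 12 in YTHDF1 KO, 8 with siARID1A and 23 in the combined group, and did not pass with no filter (adjusted p = 0.343 in YTHDF1 KO against WT, 0.219 in siARID1A against WT).

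Chromosome 2 as a whole was lower in the knockout groups. The median log2 fold change of its 1225 other tested genes was -0.402 in YTHDF1 KO against WT (85 rose, 656 fell) and -0.422 in the combined group against siARID1A, but 0.007 in siARID1A against WT. Of 6 tested genes outside the HOXD cluster and within 500 kb of it, 0 rose and 2 fell in YTHDF1 KO: LNPK (-0.584, adjusted p = 1.16e-06) and MTX2 (-0.568, adjusted p = 2.48e-06), with a median of -0.352. In YTHDF1 KO against WT the change of HOXD8 (-0.46) lay near the chromosome's median. Those of HOXD3, HOXD4, HOXD9 and HOXD13 lay far below it. In the combined group HOXD8 lay at 0.15 against siARID1A and at -0.12 against WT, and passed in neither. The chromosome's other genes had medians of -0.422 and -0.416 there. The clusters HOXA, HOXB and HOXC lie on chromosomes 7, 17 and 12, whose other genes had medians of 0.021, 0.129 and 0.058 in YTHDF1 KO. Around HOXB, 7 of 19 neighbours rose and 0 fell, with a median of 0.360. Around HOXC, 4 of 21 rose and 2 fell, with a median of 0.096, and around HOXA 0 of 3 passed. The part of these regional shifts in the HOX changes was not tested.

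**Figure D3:**
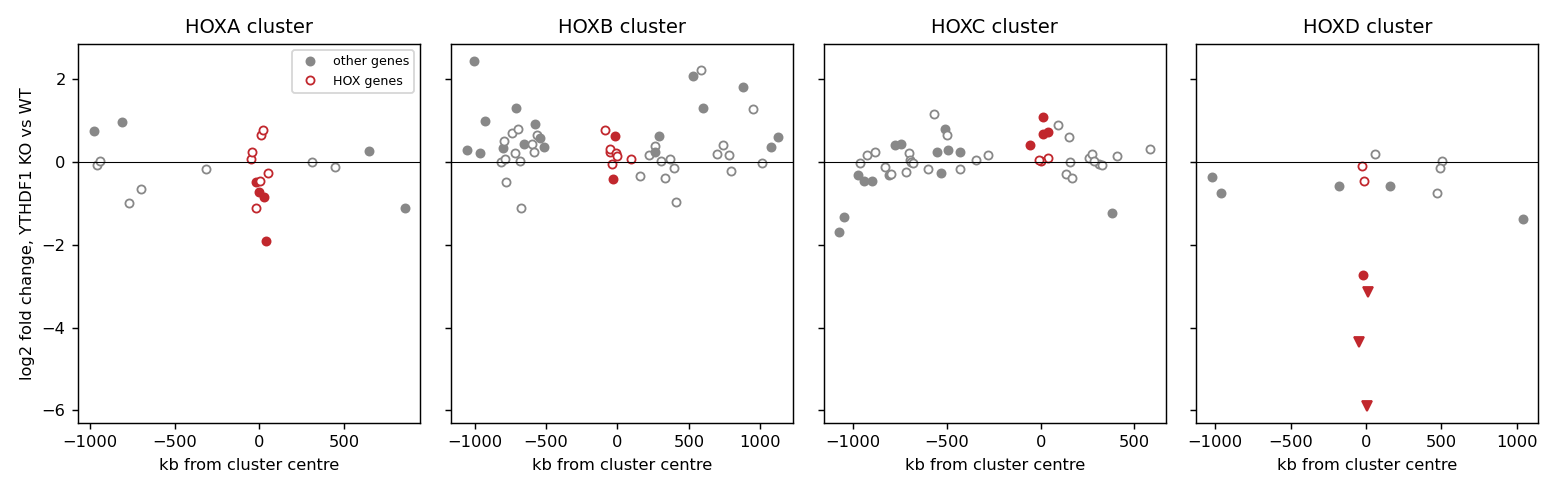
Log2 fold change in YTHDF1 KO against WT of tested genes within 1000 kb of each HOX cluster, by distance of the gene from the cluster centre; red marks HOX genes, grey other genes, and filled points an adjusted p under 0.05. Triangles are HOXD3 and HOXD13 at their fold against a floor of 3 counts and HOXD4 at its count ratio, all below every neighbour of the HOXD cluster.

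Silencing of ARID1A was compared with WT, and within YTHDF1 KO cells. Genes of HOXB and HOXC were called in both directions, with HOXB8 and HOXC13 among the rises and HOXB9 and HOXC10 among the falls in siARID1A against WT, and no tested HOXD gene passed. In siARID1A against WT, 6 of 33 HOX genes rose and 3 fell (background 22.1% and 23%), and in the combined group against YTHDF1 KO, 6 rose and 1 fell (12.5% and 10.9%). The HOX shares were 18.2% and 9.09% in the first, and 18.2% and 3.03% in the second. By cluster the rises and falls in siARID1A against WT were 3 and 2 in HOXB, 2 and 1 in HOXC, and 0 and 0 in HOXD. HOXB7, HOXB8, HOXB13 and HOXC6 were among the genes that rose in both (5 of 6 in each), and HOXB9 fell in both (1 of 3 and 1 of 1). Here too the share of all tested genes called alike in both is not given. When libraries were scaled by their totals alone, 9 HOX genes rose and 2 fell in siARID1A against WT, and the called genes over all tested moved from 4100 higher and 4268 lower to 4683 and 3512. Of the tested genes within 500 kb of HOXB, 10 of 19 rose and 1 fell in siARID1A against WT (median 0.264), and of those near HOXC, 3 of 21 rose and 6 fell (median -0.166).

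HOXB8 (ENSG00000120068, chromosome 17, 48611377 to 48614939, minus strand) had the largest rise among HOX genes in siARID1A. It was 2.62, 2.63 and 2.76 CPM in WT, 4.32, 4.43 and 3.57 in YTHDF1 KO, 6.41, 6.64 and 8.51 with siARID1A and 6.81, 6.49 and 8.52 in the combined group. The siARID1A and combined groups overlapped each other and lay above the others. The log2 fold change was 1.43 (SE 0.13, adjusted p = 1.96e-07) against WT and 0.82 (SE 0.15, adjusted p = 0.000478) within YTHDF1 KO. HOXB7, its neighbour, was 13.2, 14.3 and 15.5 CPM in WT, 16.7, 18.8 and 14.7 in YTHDF1 KO, 18.7, 20.1 and 19.9 with siARID1A and 23.6, 23.7 and 21.7 in the combined group. The combined libraries of HOXB7 lay above all others, and siARID1A lay above WT. HOXB7 rose by 0.45 in each background (SE 0.074, adjusted p = 0.000858, and SE 0.11, adjusted p = 0.00162).

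HOXB13, a gene of the prostate and the tail end of the body, was 5.2, 5.09 and 5.25 CPM in WT, 5.11, 5.61 and 5.73 in YTHDF1 KO, 6.59, 7.83 and 7.81 with siARID1A and 10.2, 8.93 and 7.61 in the combined group. Libraries with ARID1A silenced lay above those without, in both backgrounds. HOXB13 rose by 0.52 (SE 0.083, adjusted p = 0.00446) and, within YTHDF1 KO, by 0.70 (SE 0.13, adjusted p = 0.000592). HOXB9 went the other way, from 11.4, 10.7 and 13 CPM in WT to 7.77, 9.49 and 9.22 with siARID1A and from 13.6, 13.2 and 11.9 in YTHDF1 KO to 9.04, 10.03 and 9.02 in the combined group. In neither background did the groups overlap. It fell by 0.40 (SE 0.12, adjusted p = 0.00818) and by 0.46 (SE 0.078, adjusted p = 0.0056). The first of these was lost without siARID1A replicate 1 (-0.32, adjusted p = 0.0583; 0.00652 to 0.0583 over the alternatives). HOXB8 and HOXB9 both overlap the annotated span of HOXB7 on the same strand.

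HOXA2, at 2.34 ± 0.671 CPM in WT and 3.21 ± 0.363 in siARID1A, did not pass (0.44, SE 0.24, adjusted p = 0.108), but passed without WT replicate 2 (0.73, adjusted p = 0.0121; 0.0121 to 0.3 over the alternatives).

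HOXC6 rose by 0.92 (SE 0.22, adjusted p = 0.000191) in siARID1A and by 0.78 (SE 0.15, adjusted p = 0.00148) within YTHDF1 KO. HOXC4 rose by 0.74 (SE 0.12, adjusted p = 0.000842) within YTHDF1 KO and lay at 0.38 (SE 0.16, adjusted p = 0.0687) in siARID1A against WT. It passed there with library totals (0.44, adjusted p = 0.0414), with DESeq2 (0.40, 0.0467), and without WT replicate 3 (0.49, 0.0305) or siARID1A replicate 1 (0.48, 0.0386), in a range of 0.0305 to 0.218. HOXC8 did not pass in either background (-0.23, SE 0.086, adjusted p = 0.226, and -0.00, SE 0.15, adjusted p = 0.989). HOXB6 was 7.86, 6.46 and 7.36 CPM in siARID1A, a fall of 0.48 (SE 0.19, adjusted p = 0.0104). That call was lost without WT replicate 2 (-0.27, adjusted p = 0.148) or siARID1A replicate 2 (0.0514), in a range of 0.00226 to 0.148. HOXB5 (5.68 ± 0.842 CPM in WT, 4.42 ± 0.416 in siARID1A) did not pass (-0.37, adjusted p = 0.0757) except without WT replicate 3 (-0.48, adjusted p = 0.0274; 0.0274 to 0.232 over the alternatives). HOXA13 (3.34 ± 0.18 and 4.41 ± 0.496 CPM) lay at 0.40 (SE 0.11, adjusted p = 0.0591) with no overlap, and passed in 4 alternatives, among them without siARID1A replicate 3 (0.49, adjusted p = 0.0428; 0.0342 to 0.18 over the alternatives). HOXC9 (4.75 ± 1.44 and 6.27 ± 0.459 CPM) lay at 0.41 (SE 0.27, adjusted p = 0.0635) and passed in 4, among them without WT replicate 3 (0.62, adjusted p = 0.00805; 0.00805 to 0.327).

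**Figure D4:**
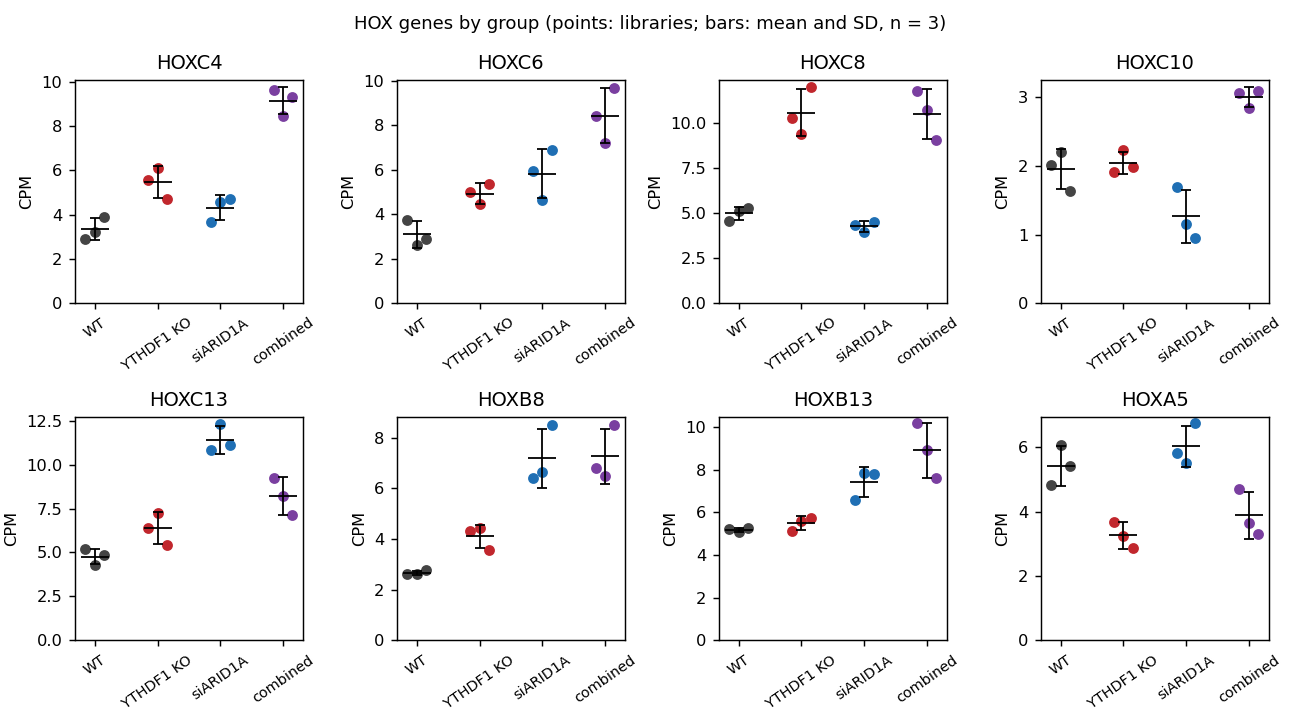
CPM in each library (points) with mean and SD (bars, n = 3) of 8 HOX genes in the 4 groups, each y axis starting at 0. HOXC8 and HOXA5 separate the knockout groups from the others, HOXB13 and HOXB8 the siARID1A groups, and HOXC10 and HOXC13 are the HOX genes whose interaction passed.

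The effect of ARID1A silencing differed between the backgrounds for 2 HOX genes, both in HOXC. The interaction (the siARID1A effect in YTHDF1 KO minus that effect in WT) passed in the positive direction for 1 of 33 HOX genes and in the negative direction for 1, where 8.87% and 8.22% of all tested genes did. HOXC10 (ENSG00000180818, chromosome 12, 53985065 to 53990279), a gene of hindlimb motor neurons, was 2.02, 2.21 and 1.63 CPM in WT and 1.69, 1.16 and 0.946 in siARID1A, but 1.91, 2.23 and 1.99 in YTHDF1 KO and 3.07, 2.84 and 3.1 in the combined group. It fell by 0.63 (SE 0.27, adjusted p = 0.0375) in siARID1A against WT and lay at 0.55 (SE 0.075, adjusted p = 0.0821) within YTHDF1 KO (0.0281 with only the groups compared), an interaction of 1.19 (SE 0.28, adjusted p = 0.0142). The combined libraries lay above all others, and siARID1A overlapped WT. The fall was lost without WT replicate 1 (adjusted p = 0.0775), WT replicate 2 (0.134), siARID1A replicate 2 (0.102) or siARID1A replicate 3 (0.182), as well as with library totals (0.0623), no filter (0.0934) or only the groups compared (0.106), and its adjusted p ran from 0.0102 to 0.182. The interaction passed in all 18 alternatives (0.00498 to 0.0482).

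HOXC13 (ENSG00000123364, chromosome 12, 53938765 to 53946544) was 5.17, 4.29 and 4.84 CPM in WT and 10.8, 12.3 and 11.1 in siARID1A, but 6.42, 7.26 and 5.45 in YTHDF1 KO and 9.26, 8.21 and 7.11 in the combined group. It rose by 1.26 (SE 0.095, adjusted p = 1.12e-07) in siARID1A against WT and lay at 0.36 (SE 0.16, adjusted p = 0.0715) within YTHDF1 KO, an interaction of -0.90 (SE 0.19, adjusted p = 0.00235). The siARID1A libraries lay above those of every other group. The interaction passed in all 18 alternatives (0.00014 to 0.0127). The change within YTHDF1 KO passed without YTHDF1 KO replicate 2 (0.46, adjusted p = 0.0492) or combined replicate 3 (0.45, 0.0494), with library totals (0.40, 0.0434) and with only the groups compared (0.35, 0.0473), in a range of 0.0434 to 0.301. In the combined group against siARID1A, HOXC13 fell by 0.48 (SE 0.12, adjusted p = 0.00809), a call lost without combined replicate 3 (-0.39, adjusted p = 0.0644; 0.00232 to 0.0644 over the alternatives). HOXC10 rose by 1.24 there (SE 0.24, adjusted p = 0.000191). Further interactions passed when 1 library was left out, that of HOXB6 without WT replicate 3 (0.61, adjusted p = 0.0411, against 0.119 with all libraries) and that of HOXD8 without WT replicate 1 (0.82, adjusted p = 0.0331, against 0.16).

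With both changes, 10 of 33 HOX genes rose against WT and 8 fell, 30.3% and 24.2% against 25.6% and 25.9% over all tested genes. HOXC had 5 rises and 0 falls, HOXB 3 and 2, HOXA 2 and 3, and HOXD 0 and 3. HOXC4 and HOXC6 had the largest rises in HOXC, by 1.46 (SE 0.13, adjusted p = 3.51e-08) and 1.45 (SE 0.2, adjusted p = 2.1e-07), HOXC8 by 1.08 (SE 0.13), HOXC13 by 0.78 (SE 0.13) and HOXC10 by 0.61 (SE 0.13, adjusted p = 0.0278). HOXB8 rose by 1.45 (SE 0.12), HOXB13 by 0.78 (SE 0.12), HOXB7 by 0.68 (SE 0.078) and HOXA7 by 1.10 (SE 0.4). HOXA11 fell by 2.08 (SE 0.39), HOXA5 by 0.49 (SE 0.18, adjusted p = 0.019), HOXA3 by 0.48 (SE 0.083), HOXB6 by 0.40 (SE 0.2, adjusted p = 0.0233) and HOXB9 by 0.32 (SE 0.096, adjusted p = 0.029). HOXD13 was at least 20.2-fold and HOXD3 at least 8.78-fold lower, and HOXD4 lower by a ratio of 58.5 (15.9 to 489). HOXA11, HOXD3, HOXD4 and HOXD13 had no combined library above the filter level, and entered the test only through groups where they were higher. HOXB6 overlapped WT, and the other called genes did not. This comparison shares its WT libraries with those of each single change and its combined libraries with those within each background.

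Among these calls several rested on single libraries. HOXA5 was lost without WT replicate 2 (adjusted p = 0.0846), combined replicate 2 (0.071) or combined replicate 3 (0.107), of a range from 0.00723 to 0.107. HOXB6 was lost without WT replicate 2 (0.248), combined replicate 1 (0.0599) or combined replicate 3 (0.108), of a range from 0.00511 to 0.248. HOXB9 was lost without WT replicate 3 (0.128), combined replicate 1 (0.0889) or combined replicate 3 (0.093), of a range from 0.0139 to 0.224, and HOXC10 without WT replicate 1 (0.0521), WT replicate 3 (0.102), combined replicate 1 (0.0684) or combined replicate 3 (0.0756), of a range from 0.00925 to 0.102. With library totals HOXA5 (0.1), HOXB6 (0.146) and HOXB9 (0.224) were not called, and with no filter neither HOXB9 (0.0689) nor HOXC10 (0.0548) was. HOXB3 passed with library totals (0.41, adjusted p = 0.0272) and with no filter (0.29, 0.0377). Without WT replicate 2, HOXB3 (0.50, adjusted p = 0.00153) and HOXA2 (0.57, adjusted p = 0.0421) also passed, against 0.0845 and 0.273 with all libraries, in ranges of 0.00153 to 0.416 and 0.0421 to 0.704. Without WT replicate 2, whose counts stood apart, 5 HOX genes rose and 8 fell in YTHDF1 KO against WT, 7 rose and 1 fell in siARID1A against WT, and 12 rose and 6 fell in the combined group against WT. The shares of all tested genes without that library are not given here, so these counts cannot be read as particular to HOX genes. With library totals, 11 HOX genes rose and 5 fell against WT, and 7 rose and 5 fell in the combined group against siARID1A. Of all 18524 tested genes, 6074 rose and 3505 fell in the first of these, and 4328 and 2629 in the second.

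Over the 6 comparisons, 20 of the 33 tested HOX genes were called at least once (60.6%, against 70.4% of all 18524 tested genes) and 13 never. The genes never called were HOXA2, HOXA4, HOXA6, HOXA9 and HOXA13 in HOXA, HOXB2, HOXB3, HOXB4 and HOXB5 in HOXB, HOXC5 and HOXC9 in HOXC, and HOXD8 and HOXD10 in HOXD. Of these, HOXA4, HOXA9, HOXB2, HOXB4, HOXC5 and HOXD10 had group means of 0.15 to 0.786 CPM, where the depth limits what can be called. HOXA6 stood at 1.02 ± 0.247 CPM in WT and 0.593 ± 0.0722 in the combined group (-0.79, SE 0.2, adjusted p = 0.0918), and lay at -0.95 against siARID1A (SE 0.28, adjusted p = 0.0605), where it passed in 4 alternatives: without siARID1A replicate 3 (-1.15, adjusted p = 0.0375), with only the groups compared (0.0433), and when YTHDF1 KO replicate 2 (0.0458) or WT replicate 2 (0.0465) was left out of the fit, in a range of 0.0375 to 0.274. HOXB3 lay at 0.34 against siARID1A (SE 0.15, adjusted p = 0.0609) and passed without siARID1A replicate 3 (0.0498), with library totals (0.0385), no filter (0.0239) or only the groups compared (0.0319), or when WT replicate 1 (0.0324) or 2 (0.0225) was left out of the fit, in a range of 0.0225 to 0.266. Of all 39 HOX genes, 33 overlap another annotated gene, 24 on the same strand and 25 on the other strand. Among HOX genes, HOXA3 overlaps HOXA4, HOXA5 and HOXA6, HOXB3 overlaps HOXB4, HOXB5 and HOXB6, and HOXC6 overlaps HOXC4, HOXC8 and HOXC9. Reads in such overlaps could be split or dropped in counting, so these counts are uncertain.

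Noncoding RNAs of the clusters changed beside some of these genes. Of 11 tested (of 18 listed), 2 rose and 4 fell in YTHDF1 KO against WT, 2 rose and 3 fell with siARID1A and 1 rose and 4 fell in the combined group, with medians of -0.41, -0.12 and -0.48 against -0.01 over all genes in each. In these comparisons 19.6% and 20.8%, 22.1% and 23%, and 25.6% and 25.9% of all tested genes rose and fell. HAGLR, which overlaps HOXD1 and HOXD3 on the other strand, stood at 5.21 to 6.61 CPM in WT, 0.236 to 0.484 in YTHDF1 KO, 9.05 to 10.4 with siARID1A and 1.64 to 2.16 in the combined group. No groups overlapped. HAGLR fell in YTHDF1 KO (adjusted p = 5.47e-13) and rose by 0.77 (SE 0.12, adjusted p = 0.00054) in siARID1A. HOXD-AS2, which overlaps HOXD3, HOXD8 and HOXD9, fell from 0.473 ± 0.0593 to 0.0362 ± 0.0314 CPM in YTHDF1 KO (adjusted p = 0.00115). HOXA-AS2, which overlaps HOXA3 and HOXA4, fell from 10.1 ± 2.21 to 3.01 ± 0.398 CPM (-1.75, SE 0.22, adjusted p = 2.47e-08), and to 5.87 ± 1.15 in siARID1A (-0.78, SE 0.26, adjusted p = 0.000699). HOXC13-AS, which overlaps HOXC13, rose from 0.0167 CPM in WT to 0.573 ± 0.213 in siARID1A (adjusted p = 0.000102). Outside siARID1A no library of HOXC13-AS lay above the filter level of 0.276 CPM. HOXD-AS2 had no library above it in YTHDF1 KO or the combined group. Both RNAs entered the test only through groups where they were higher. The strand setting of the counting is not given in the sources used here, so reads of these RNAs and of the HOX genes they overlap cannot be told apart.

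Partners of HOX proteins on DNA changed in both directions. Of 8 tested TALE homeodomain cofactors (the PBX, MEIS and PKNOX families), 3 rose and 3 fell in YTHDF1 KO, 1 rose and 4 fell with siARID1A and 3 rose and 4 fell in the combined group, each against WT, with medians of 0.01, -0.34 and -0.13 against -0.01 over all genes. The shares of all tested genes that rose and fell were 19.6% and 20.8%, 22.1% and 23%, and 25.6% and 25.9%. PBX3, on chromosome 9, fell by 0.62 in YTHDF1 KO and by 0.55 in siARID1A, and PBX4 rose by 0.90 and 1.55. The median of all tested chromosome 9 genes was -0.36 in YTHDF1 KO and -0.41 in siARID1A against WT, and medians of chromosomes other than 2 and 9 ran from -0.09 to 0.13 and from -0.10 to 0.11.

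Among trithorax and COMPASS genes and further activators (among them DOT1L, MLLT1, MLLT3 and KDM6B), more were called lower than higher. The list itself was not tested. Of 18, 0 rose and 11 fell in YTHDF1 KO, 3 rose and 12 fell with siARID1A and 0 rose and 9 fell in the combined group, with medians of -0.23, -0.34 and -0.30 against -0.01 over all genes. Rises and falls made up 19.6% and 20.8%, 22.1% and 23%, and 25.6% and 25.9% of all tested genes. WDR5 (chromosome 9), a shared COMPASS subunit, fell by 0.72 and 0.91 in the single changes. The H3K79 methyltransferase DOT1L fell by 0.89 and the H3K4 methyltransferase SETD1B by 0.56 in YTHDF1 KO. In siARID1A MLLT3 (chromosome 9) rose by 0.70, and PSIP1 (chromosome 9), which tethers MLL complexes to chromatin, fell by 0.71. In the combined group against WT the menin gene MEN1 fell by 0.61. In WT, YTHDF1 KO, siARID1A and the combined group, DOT1L had means of 85.6, 46.3, 58.5 and 42.9 CPM. In the same order SETD1B had 70.1, 47.7, 46 and 44.3, and MEN1 65.7, 57.2, 42.3 and 43.

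Polycomb genes, which keep HOX clusters silent, split. Of 11 genes of Polycomb repressive complex 2, 4 rose and 2 fell in YTHDF1 KO, 1 rose and 3 fell with siARID1A and 5 rose and 2 fell in the combined group, with medians of -0.02, -0.03 and 0.18, where 19.6% and 20.8%, 22.1% and 23%, and 25.6% and 25.9% of all tested genes rose and fell. The catalytic subunit EZH2 fell by 0.38 and 0.77 in the single changes, its paralog EZH1 rose by 0.37 and 0.23, and PHF19 (chromosome 9), a targeting subunit, fell by 0.56 and 1.03. Of 19 genes of Polycomb repressive complex 1, 8 rose and 3 fell, 1 rose and 6 fell, and 5 rose and 5 fell, with medians of 0.05, -0.08 and -0.00, to be read against the same shares. PHC1 rose by 0.51 and BMI1 by 0.44 in YTHDF1 KO, where PCGF5 fell by 0.36, and CBX2 and PHC2 fell by 0.54 and 0.36 in siARID1A.

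Among retinoic acid genes more were called lower than higher, again with no test of the list. Of 15 tested (of 17), 3 rose and 7 fell in YTHDF1 KO, 4 rose and 7 fell with siARID1A and 3 rose and 7 fell in the combined group, with medians of -0.42, -0.23 and -1.04 against -0.01 over all genes. Over all tested genes the shares were 19.6% and 20.8%, 22.1% and 23%, and 25.6% and 25.9%. RARB, a retinoic acid receptor that is itself induced by retinoic acid, went from 72.6 ± 2.75 CPM in WT to 14.6 ± 1.63 in YTHDF1 KO (-2.32, SE 0.1), 22.7 ± 4.67 in siARID1A (-1.68, SE 0.18) and 9.2 ± 1.48 in the combined group (-2.97, SE 0.14). DHRS3, which reduces retinal, fell by 2.05 in YTHDF1 KO, and CYP26B1 (chromosome 2), which degrades retinoic acid, fell by 1.68. STRA6, a receptor for retinol uptake, fell by 0.98 with siARID1A and fell by 2.10 in the combined group. RXRA (chromosome 9), a partner of retinoic acid receptors, fell by 0.78 in siARID1A. STRA6 had means of 63.2, 32.7, 32.1 and 14.7 CPM in WT, YTHDF1 KO, siARID1A and the combined group. RXRA had 102, 56.4, 59.2 and 49.3 CPM in the same order. Of 6 ParaHOX genes, relatives of the HOX genes outside the clusters, only CDX2 could be tested, at 0.639 ± 0.195 CPM in WT. It lay at -0.46, -0.09 and -0.84 in the 3 altered groups against WT and passed in none.

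The regulator lists were also counted within each background. In the combined group against YTHDF1 KO, 0 of 8 TALE cofactors rose and 0 fell. Rises and falls were 2 and 6 of 18 in the trithorax, COMPASS and activator list and 1 and 1 of 11 in Polycomb repressive complex 2. They were 0 and 2 of 19 in Polycomb repressive complex 1 and 2 and 4 of 15 among retinoic acid genes. Of all tested genes 12.5% rose and 10.9% fell. In the combined group against siARID1A the rises and falls were 4 and 1, 3 and 4, 5 and 0, 4 and 2, and 2 and 8 in the same order (18.2% and 17.2% of all tested genes). Members of these lists were named by smallest p within a comparison, so a member named for 1 group may also have changed in others. No relation between the regulators and the HOX genes was tested.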

How the data were processed

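Total RNA of A549 cells was sequenced as 12 libraries made with a stranded kit, per the labels' protocols. The submitters' processing notes name Trim Galore 0.6.6, STAR 2.7.0d, featureCounts 2.0.1, edgeR 3.32.1 and GRCh38. The annotation release and strand setting are not given in the sources used here. The authors deposited raw counts per Ensembl gene, whole numbers that are not normalized. Symbols were matched for 60261 of 60617 identifiers, and positions for 58542 in GENCODE 29.

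The tests used edgeR 4.0.16 with limma 3.58.1 under R 4.3.3: filterByExpr on the 4 groups, TMM factors (0.912 to 1.05), 1 fit over 12 libraries, and edgeR's two-sided quasi-likelihood test with robust dispersion. Adjusted p-values (Benjamini-Hochberg) are over all 18524 genes tested, with a threshold of 0.05, and "rose", "fell" and "called" refer to it. Standard errors come from replicate SDs of log2 CPM with a prior count of 2. CPM per kb uses union exon length. A group at 0 is given a floor of 3 counts over the group, and "at least" folds set it against the other group's counts as observed. Groups followed the genotype labels. The fit was tested on simulated counts.

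HOX genes were named with full values if tested and either called or at 1 CPM or more in a group, and by counts otherwise, with up to 3 called members of each regulator list per comparison by smallest p. The members and lists were chosen with earlier results of these data known. Alternatives were RLE factors, library totals, TMM without chromosomes 2 and 9, no filter, DESeq2 1.42.0, only the groups compared, a replicate block, leaving out each library, another transcript length and a wider neighbourhood. Protein sequences were not used here. A few genes counted in the totals are not reported here by name.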

Additional observations from a re-analysis of the deposited data

Results flagged for a closer look

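HOXC10 differed between backgrounds in its response to ARID1A silencing, by a test of that difference itself. The change within YTHDF1 KO was higher than that in WT by 1.19 on the log2 scale (adjusted p = 0.0142, edgeR). HOXC13 differed in the opposite direction, by -0.90 (adjusted p = 0.00235).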

How the results depend on the processing

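Leaving out 1 library at a time, the number of HOX genes called ranged from 12 to 15 in YTHDF1 KO against WT (14 with all libraries), 7 to 12 in siARID1A against WT (9), 14 to 18 in the combined group against WT (18), 7 to 8 against YTHDF1 KO (7), 7 to 13 against siARID1A (11), and 2 to 3 for the interaction (2). The count of 7 against siARID1A came without combined replicate 3. Over all alternatives the counts ran from 12 to 15, 7 to 12, 14 to 18, 7 to 9, 7 to 13 and 2 to 3. Shares of all tested genes with a library left out or with a replicate block are not given beside these counts. Of the 61 calls, 47 passed in every alternative that gave a value and none changed direction. For 3 of these 47 (HOXD3 in YTHDF1 KO and in the combined group against WT, HOXD9 in YTHDF1 KO against WT) the fit to only the groups compared gave none, since its filter left them out. With library totals, 61.2% of all called genes in YTHDF1 KO against WT were higher (4765 against 3016 lower; 48.5% with TMM), with 63.4% in the combined group against WT (49.7%), where the median of all genes moved from -0.01 to 0.13. It was 57.1% in siARID1A against WT (49%), 63.5% against YTHDF1 KO (53.5%) and 62.2% against siARID1A (51.3%). With the length of the longest transcript, HOXB7 in WT stood at 10.4 CPM per kb and HOXA3 at 6.59. The median of HOXD neighbours in siARID1A against WT was 0.933 within 500 kb (6 genes) and 0.105 within 1000 kb. Labels do not say that equal replicate numbers share a culture or day, and same-numbered libraries did not deviate together (correlations of -0.042 to 0.033 over 18 pairs, with 6 of 12 libraries closest to their own number). With a replicate block, the HOX counts were 14, 9, 18, 7, 11 and 2. Depth limits HOX genes under about 0.276 CPM, where a library holds fewer than 10 counts.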
